A study of Mus musculus with 8 samples.

Results

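The proteasome genes of mouse gastrocnemius nuclei were taken as all genes whose symbol begins with Psm, followed by a letter from a to g and a digit. The rule found 50 members among the 21207 gene symbols that all 8 deposited gene lists hold. They comprised 8 Psma genes, 11 Psmb genes, 7 Psmc genes, 14 Psmd genes, 5 Psme genes, 1 Psmf gene and 4 Psmg genes. The rule used symbols and no measured value, although earlier results of these data were known when it was chosen. The muscle came from wild-type C57BL/6 mice and was frozen in liquid nitrogen before its nuclei were isolated and their RNA was sequenced one nucleus at a time. Old mice (labelled Aging) were 20 months of age and Young mice 3 months. Running mice were 11 months of age at the start of 2 months of treadmill training, and Sedentary mice of the same age were not trained. Each of the 4 groups had 2 libraries, 1 in a set made with 10x Genomics chemistry (replicate 1) and 1 in a second set counted with PISA software (replicate 2). Whether a library came from 1 animal or from several was not given in the sources used here, so that p-values measure the spread between libraries only.

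The proteasome degrades proteins that carry chains of ubiquitin. Its 20S core is a barrel of rings: the outer rings hold the products of the Psma genes and the inner rings those of the Psmb genes, of which Psmb5, Psmb6 and Psmb7 encode the catalytic subunits. The 19S regulator, built from a base with the Psmc ATPases and a lid of Psmd products, recognises, unfolds and threads substrates into the core. After interferon, Psmb8, Psmb9 and Psmb10 take the places of Psmb5, Psmb6 and Psmb7 in the immunoproteasome, and Psme1 and Psme2 encode the PA28 cap that goes with it. In skeletal muscle the proteasome is the main route by which myofibrillar proteins are broken down in atrophy, after ubiquitylation by ligases such as those encoded by Trim63 and Fbxo32.

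After removal of nuclei with fewer than 200 or more than 6000 genes or with over 6% mitochondrial UMIs (unique molecular identifiers, the counted RNA molecules), 64803 of 65280 nuclei were retained. They held 23327640 to 44389777 UMIs per 10x library and 4765224 to 9088163 per second-set library, with a median of 1664 to 3001 and of 909 to 1689.5 UMIs per nucleus. The summed markers of Type IIb fibres, the prevalent fast fibre of this muscle, stood at 12120 to 27617 per 1000000 UMIs (CPM) across the 8 libraries. Old replicate 2 stood apart from the others: 4133 of its 4772 nuclei fell into clusters that could not be named from markers, and only 38 were Type IIb-like. Sedentary replicate 1 stood apart within the 10x set: it had that set's lowest median depth, 2494 of its 10587 nuclei were in unnamed clusters, and it held 450 of the 450 nuclei of one Type IIa/IIx-like cluster, 964 of 1031 of an unnamed cluster led by Gm13490 and 1058 of 1728 of an unnamed cluster led by Gm10800. The 10x libraries shared 30 to 46 cell barcodes pairwise, at most 0.39% of the smaller library, and the barcodes of the second set are serial numbers that do not allow this count. Of the 50 members, 10 overlap another annotated gene on the same strand and 19 one on the opposite strand, among them Psmb9 with Tap1 and Psme1 with Emc9, and reads of such pairs may not be separable.

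All 50 members had at least 1 UMI in every library, with 442449 UMIs in all. In CPM, UMIs scaled to a total of 1000000 (without mitochondrial and ribosomal protein genes), the members together held 2547, 2602, 2492 and 2290.4 in the Old, Young, Running and Sedentary libraries of the 10x set and 2308, 3224, 3225 and 3262 in the second set, or 0.229% to 0.326% of the library. Sedentary was the lowest library of the 10x set and Old the lowest of the second. In sums over nuclei, fewer nuclei of a kind and less RNA per nucleus cannot be told apart. Over the 8 libraries a member had from 116 UMIs (Psmb11) to 112246 (Psme4). Levels by library are given in the following as CPM in the order Old, Young, Running and Sedentary.

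**Figure D1:**
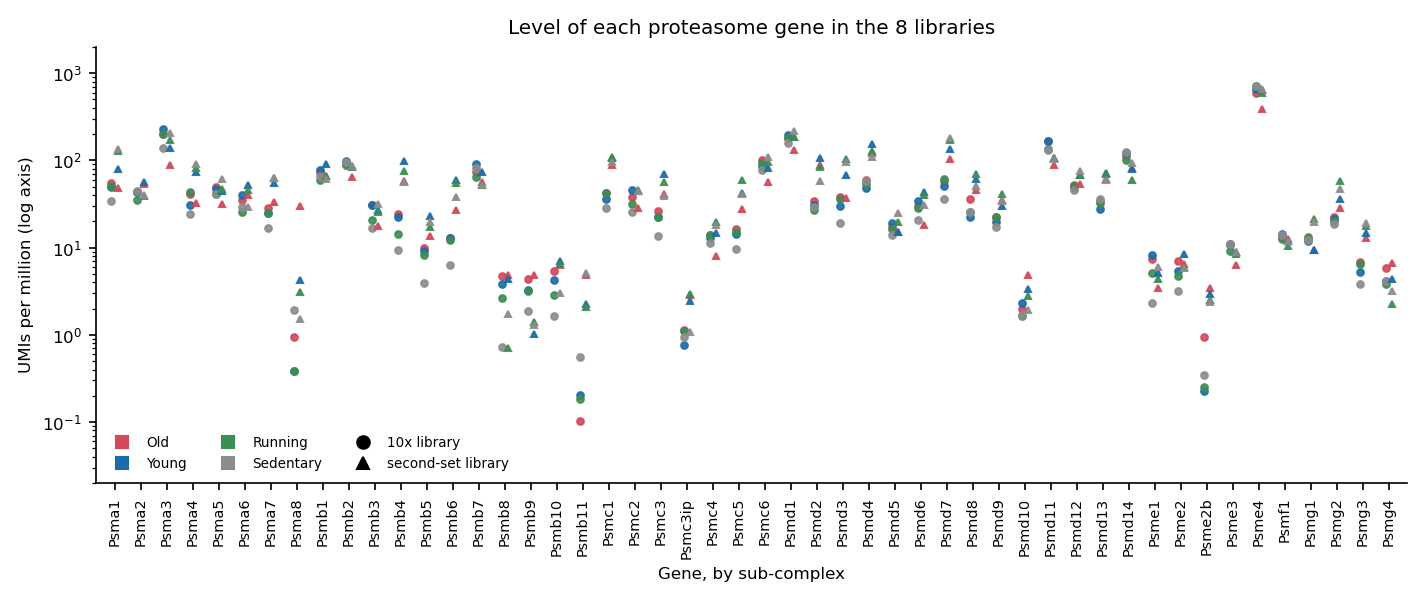
CPM (log axis) of each of the 50 proteasome genes, grouped by sub-complex along the horizontal axis. Circles are the 10x libraries and triangles the second-set libraries, coloured by group. CPM is not corrected for the length of a gene, so that heights compare libraries within a gene; Psme4 spans 394 to 719.6 over the 8 libraries.

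The 20S core is encoded by Psma and Psmb genes. Psma3 (Ensembl ENSMUSG00000060073, chromosome 12, 70974621-70996347 in mm10) had the most UMIs of the outer-ring genes, at 203, 229, 203 and 138 in the 10x libraries and at 87.8, 139.6, 173 and 208 in those of the second set. Psma1 stood at 54.6, 49.7, 50.6 and 33.9 in the 10x libraries and at 48.8, 80.2, 128 and 137 in those of the second set, and Psma4 at 40.9, 31, 43.6 and 24.4 in the 10x libraries and at 32.1, 73.6, 82.9 and 91.4 in those of the second set. In these 3 genes Sedentary was the lowest library of the 10x set and Old the lowest of the second set. Psma5 stood at 49.8, 47.1, 41.5 and 40.8 in the 10x libraries and at 31.3, 44.9, 47.1 and 61.3 in those of the second set, and Psma7 at 28.3, 25.1, 25.1 and 16.9 in the 10x libraries and at 33.3, 54.9, 62.9 and 62.8 in those of the second set, with the same lowest library in each set. Psma2 and Psma6 did not share that pattern: Psma2 stood at 42.9, 43, 35.6 and 44.7 in the 10x libraries and at 53.7, 56.7, 38.7 and 39.9 in those of the second set, and Psma6 at 35.5, 40.6, 25.9 and 29.4 in the 10x libraries and at 39.96, 52.4, 45.8 and 29.4 in those of the second set. Psma8, the testis-specific counterpart of Psma7, stood at 0.955, 0.38, 0.386 and 1.94 in the 10x libraries and at 30.1, 4.27, 3.08 and 1.5 in those of the second set. Its value in Old replicate 2 lay above those of the other 7 libraries, which ranged from 0.38 to 4.27.

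Of the inner-ring genes, the 3 constitutive catalytic subunits are given first. Psmb5, the chymotrypsin-like subunit, stood at 9.86, 9.08, 8.22 and 3.98 in the 10x libraries and at 13.7, 22.9, 17.1 and 19.5 in those of the second set. Psmb6, the caspase-like subunit, stood at 13, 12.7, 12.4 and 6.27 in the 10x libraries and at 27.2, 58.9, 55.4 and 38 in those of the second set. Psmb7, the trypsin-like subunit, stood at 73.3, 92.2, 65 and 82.6 in the 10x libraries and at 57.3, 74.6, 52 and 52.3 in those of the second set. Psmb7 spans 56.1 kb against 3.9 and 2.49 kb for Psmb5 and Psmb6, and per kb of span its mean level in the 10x set was 1.4 CPM, against 1.99 for Psmb5 and 4.46 for Psmb6. The interferon-inducible counterparts follow. Psmb8, which replaces Psmb5, stood at 4.72, 3.83, 2.66 and 0.735 in the 10x libraries and at 4.84, 4.38, 0.701 and 1.72 in those of the second set. Psmb9, which replaces Psmb6, stood at 4.41, 3.27, 3.2 and 1.86 in the 10x libraries and at 4.84, 1.01, 1.4 and 1.29 in those of the second set, and Psmb10, which replaces Psmb7, at 5.34, 4.21, 2.88 and 1.64 in the 10x libraries and at 6.26, 7.08, 6.45 and 3.0 in those of the second set. In the 10x set all 3 were highest in Old and lowest in Sedentary. The non-catalytic Psmb1 stood at 73.4, 76.9, 59.3 and 65.6 in the 10x libraries and at 66, 91, 67.2 and 60.9 in those of the second set, and Psmb2, with the most UMIs of the Psmb genes, at 91.5, 98.8, 89.6 and 94.8 in the 10x libraries and at 65, 86, 83.4 and 86.7 in those of the second set. Psmb3 stood at 31, 30.4, 20.7 and 16.8 in the 10x libraries and at 17.8, 26.7, 25.5 and 31.3 in those of the second set, and Psmb4 at 24.2, 22.2, 14.5 and 9.38 in the 10x libraries and at 58.7, 98.7, 75.4 and 56.8 in those of the second set. The value of Psmb4 was higher in every second-set library than in any 10x library. Psmb11, the catalytic subunit of the thymus cortex, had 116 UMIs in all and stood at 0.103, 0.203, 0.182 and 0.562 in the 10x libraries and at 4.84, 2.25, 2.1 and 5.15 in those of the second set.

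Psmc1 to Psmc6 encode the ATPase ring of the 19S base. Psmc6 had the most UMIs, at 101, 86.3, 93.8 and 78.2 in the 10x libraries and at 56.7, 82.7, 95.8 and 109.8 in those of the second set. Psmc1 stood at 42.6, 35.8, 42.6 and 28.7 in the 10x libraries and at 88.4, 106, 109 and 94.8 in those of the second set, Psmc2 at 37.7, 46.3, 31.6 and 25.5 in the 10x libraries and at 28.5, 44.4, 46 and 44.8 in those of the second set, and Psmc3 at 26.4, 22.3, 22.3 and 13.7 in the 10x libraries and at 40.8, 69.4, 56.9 and 39.5 in those of the second set. The lowest library was Sedentary for these 4 genes in the 10x set. Psmc4 stood at 13.8, 12.9, 13.8 and 11.3 in the 10x libraries and at 8.07, 14.7, 19.5 and 18.2 in those of the second set, and Psmc5 at 16.2, 14.3, 15.3 and 9.77 in the 10x libraries and at 27.9, 42.6, 58.9 and 41.6 in those of the second set. Psmc3ip is a meiotic recombination factor that the rule takes in by its name alone, and it had the fewest UMIs, at 1.14, 0.761, 1.11 and 0.951 in the 10x libraries and at 2.83, 2.47, 2.94 and 1.07 in those of the second set.

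The Psmd genes encode the scaffold and lid of the 19S regulator and its chaperones. Psmd1 and Psmd2 encode the large scaffold subunits of the base: Psmd1 had the most UMIs, at 179, 198, 181 and 160.2 in the 10x libraries and at 131, 183, 186 and 220.1 in those of the second set, and Psmd2 stood at 34.2, 31.1, 27 and 29.1 in the 10x libraries and at 88.6, 106, 83.6 and 58.8 in those of the second set. Psmd4, a ubiquitin receptor, stood at 59.3, 48.8, 53 and 57.6 in the 10x libraries and at 122, 156, 129 and 111 in those of the second set. Psmd14, the deubiquitinase of the lid, stood at 113, 121, 100.2 and 125 in the 10x libraries and at 81.9, 80.3, 60.4 and 92.2 in those of the second set. Psmd11, a lid scaffold subunit, stood at 166, 166, 136 and 130.5 in the 10x libraries and at 88.6, 106, 107 and 103 in those of the second set. These genes differed in the set that read them higher: Psmd2 and Psmd4 were higher in every second-set library than in any 10x library, and Psmd11 and Psmd14 were lower in every second-set library. The remaining lid genes follow. Psmd3 stood at 38, 30.4, 35.9 and 19.1 in the 10x libraries and at 37.3, 68.4, 103 and 95.5 in those of the second set, Psmd6 at 30.1, 34.6, 28.2 and 20.9 in the 10x libraries and at 18, 43.1, 39.7 and 30.9 in those of the second set, and Psmd7 at 58.8, 50.7, 61.8 and 35.9 in the 10x libraries and at 104, 136, 171 and 181 in those of the second set. Psmd8 stood at 36.3, 22.5, 25.6 and 25.5 in the 10x libraries and at 45.8, 61.5, 69.5 and 50.4 in those of the second set, Psmd12 at 51.9, 49.3, 51.4 and 45.6 in the 10x libraries and at 54.1, 67.9, 67.4 and 75.9 in those of the second set, and Psmd13 at 34.2, 28, 32.9 and 36.3 in the 10x libraries and at 61.4, 72.5, 70.4 and 59.4 in those of the second set. Psmd5, Psmd9 and Psmd10 encode chaperones of base assembly: Psmd5 ranged from 14 to 24.9 over the 8 libraries, Psmd9 from 17.2 to 40.8, and Psmd10, with the fewest UMIs, stood at 1.96, 2.33, 1.63 and 1.69 in the 10x libraries and at 4.84, 3.37, 2.8 and 1.93 in those of the second set.

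Psme4 encodes PA200, a nuclear activator that caps the core without need of ubiquitin. It had 112246 UMIs, 17.1% to 31.4% of all member UMIs per library, and stood at 592, 661, 717 and 719.6 in the 10x libraries and at 394, 649.7, 587 and 659 in those of the second set. The gene spans 109 kb (chromosome 11, 30771726-30880361 in mm10), and CPM is not corrected for span. Per kb of span Psme4 ranked 3 of the 50 members in the 10x set, at 6.19 CPM per kb, after Psma3 at 8.9 and Psmd7 at 6.41. It ranked 14 in the second set. Psme1, of the PA28 cap, stood at 7.38, 8.22, 5.13 and 2.33 in the 10x libraries and at 3.43, 5.17, 4.35 and 6.01 in those of the second set, and its partner Psme2 at 7.07, 5.45, 4.72 and 3.2 in the 10x libraries and at 6.46, 8.43, 6.03 and 5.79 in those of the second set. Psme3, a nuclear cap of the same family, stood at 10.7, 10.9, 9.26 and 10.9 in the 10x libraries and at 6.26, 8.99, 8.55 and 9.01 in those of the second set. Psme2b, a short gene of 0.837 kb named after Psme2 that lies within other annotated genes of its strand, had the fewest UMIs, at 0.955, 0.228, 0.25 and 0.346 in the 10x libraries and at 3.43, 2.92, 2.52 and 2.36 in those of the second set. Psmf1, which encodes the regulator PI31, stood at 13.3, 14.5, 12.6 and 14 in the 10x libraries and at 12.7, 12, 10.5 and 12 in those of the second set. The Psmg genes encode chaperones that work in pairs to build the core: Psmg1 stood at 12.6, 12, 13.2 and 12.2 in the 10x libraries and at 9.28, 9.33, 21 and 19.7 in those of the second set, Psmg2 at 22.5, 21.2, 20.2 and 18.7 in the 10x libraries and at 28.7, 36.1, 58.3 and 47.4 in those of the second set, and Psmg3 at 6.76, 5.28, 6.45 and 3.85 in the 10x libraries and at 12.9, 14.8, 17.5 and 19.3 in those of the second set. Psmg4, the partner of Psmg3, had the fewest UMIs of the family, at 5.83, 4.19, 3.79 and 4.19 in the 10x libraries and at 6.66, 4.38, 2.24 and 3.22 in those of the second set.

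The library sets read short and long members differently. Over 22 members with a span under 10 kb the median log2 ratio of the second-set mean to the 10x mean was 1.10, against 0.19 over 3938 genes of that span, and 18 of the 22 were higher in the second set. The median was 0.23 over 18 members of 10 to 30 kb (all genes 0.19) and −0.11 over 10 members of 30 kb or more (all genes 0.19). In the 10x set 30 of 50 members (60%) were lowest in the Sedentary library, against 30.9% of all genes tested. In the second set 28 of 50 members (56%) were lowest in the Old library, against 24% of all genes.

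Levels differed between kinds of nuclei within a library. Nuclei were clustered without the proteasome genes, and clusters were named by marker genes, so that a class is "like" the cell type it is named after. In the 10x set all members together stood at 2898 to 3523 CPM in myotendinous junction-like nuclei, at 2465 to 2873 in Type IIb-like nuclei and at 2343 to 2647 in Type IIa/IIx-like nuclei. They stood at 1846 to 2057 in fibro-adipogenic progenitor-like nuclei, the mesenchymal cells of the muscle interstitium, at 2010 to 2538 in endothelial-like nuclei, at 1942 to 2187 in macrophage-like nuclei and at 2012 to 2427 in muscle stem cell-like nuclei. The 4 values of Type IIb-like nuclei lay above all 4 of fibro-adipogenic progenitor-like and macrophage-like nuclei, overlapped those of endothelial-like nuclei and lay below all 4 of myotendinous junction-like nuclei.

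**Figure D2:**
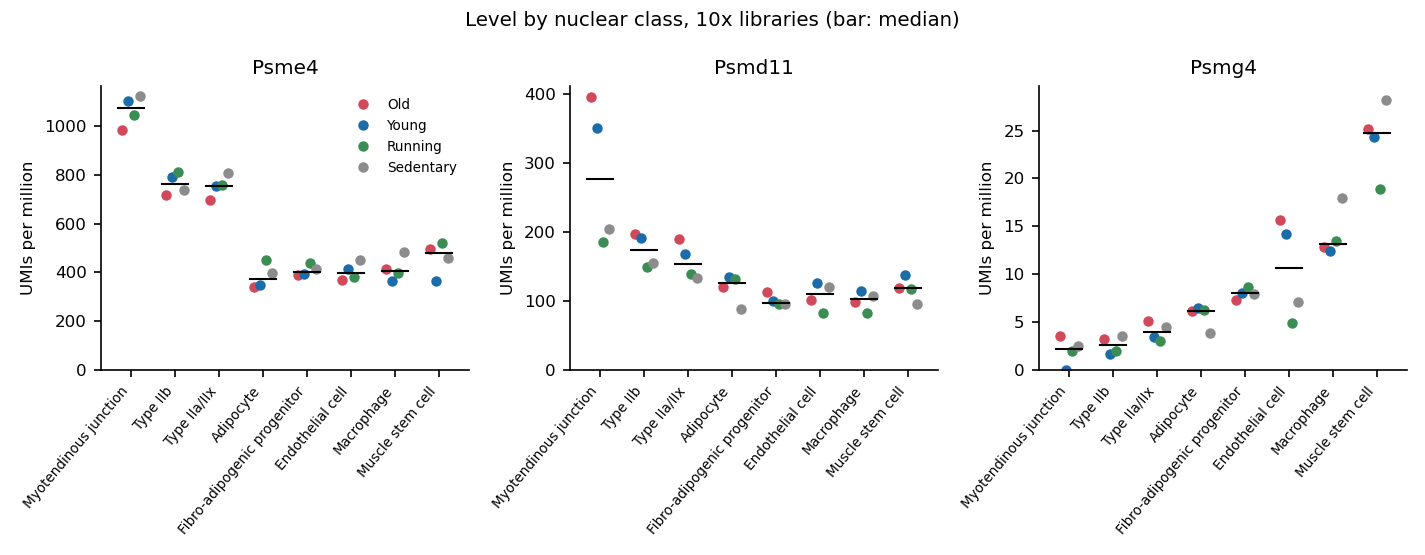
CPM of Psme4, Psmd11 and Psmg4 in 8 nuclear classes of the 4 10x libraries, coloured by group, with a black bar at the median. Psme4 stands at 717 to 813 in Type IIb-like and 390.4 to 438 in fibro-adipogenic progenitor-like nuclei, whereas Psmg4 has its lowest medians in the myonuclear classes and stands at 18.9 to 28.3 in muscle stem cell-like nuclei.

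Type IIb-like nuclei were compared with fibro-adipogenic progenitor-like nuclei of the same library in 7 libraries (Old replicate 2 had too few of the latter), where 43 of 50 members passed the filter on low counts. Most of those tested were higher in Type IIb-like nuclei: 28 passed the test in that direction and 4 in the other. Of all 12725 genes tested 35.7% were called higher and 27.2% lower. The median log2 fold change was 0.63 over the members and 0.16 over all genes. By sub-complex, 7 of 7 Psma genes, 5 of 8 Psmb genes, 5 of 6 Psmc genes and 8 of 13 Psmd genes tested were called higher, as were Psme4 and 2 of 4 Psmg genes. The largest log2 fold change was that of Psmd11, which stood at 197, 192, 149 and 155 CPM in Type IIb-like nuclei of the Old, Young, Running and Sedentary 10x libraries against 112, 99.5, 95.2 and 95.6 in fibro-adipogenic progenitor-like nuclei. The groups of values did not overlap, which was not counted over all genes. The log2 fold change was 1.26 ± 0.14 (SE, adjusted p = 9.69e-06), higher in 7 of 7 libraries. Psma5 stood at 61.5, 52.9, 46 and 46.9 against 34.5, 35.1, 27.6 and 27.2, with a log2 fold change of 1.26 ± 0.16 (SE, adjusted p = 3.24e-05). Psme4 stood at 717, 790.0, 813 and 736 against 390.4, 392, 438 and 412, with a log2 fold change of 1.08 ± 0.18 (SE, adjusted p = 0.000236). Each was higher in every 10x library, and in 7 of 7 libraries of the fit. Of the 32 calls, 23 were kept in every alternative run that tested the gene. A call whose gene did not pass the filter of a run was not counted as lost there. Those of Psma1, Psma2, Psma6, Psma7, Psmb3, Psmb6, Psmc5, Psmd12 and Psmg2 were lost in at least 1, so that 4 of the 7 Psma calls were lost at least once. Without Old replicate 1, 22 of the 32 were still called.

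On the log2 scale the other outer-ring genes were higher in Type IIb-like nuclei by smaller amounts, Psma1 by 0.63 ± 0.21 (adjusted p = 0.0193), Psma2 by 0.69 ± 0.19 (adjusted p = 0.00686), Psma3 by 0.91 ± 0.19 (adjusted p = 0.00113), Psma4 by 0.98 ± 0.14 (adjusted p = 7.3e-05), Psma6 by 0.55 ± 0.20 (adjusted p = 0.029) and Psma7 by 0.45 ± 0.14 (adjusted p = 0.0163). In the inner ring the test was passed by Psmb1 at 0.64 ± 0.14 (adjusted p = 0.00188), Psmb2 at 0.86 ± 0.15 (adjusted p = 0.00038), Psmb3 at 0.57 ± 0.17 (adjusted p = 0.0103), Psmb6 at 0.43 ± 0.17 (adjusted p = 0.0499) and Psmb7 at 1.01 ± 0.15 (adjusted p = 0.000101). Psmb4 and the catalytic Psmb5 did not pass, at -0.16 ± 0.17 (adjusted p = 0.454) and 0.15 ± 0.28 (adjusted p = 0.647). Among the ATPases the calls were Psmc1 at 0.93 ± 0.18 (adjusted p = 0.000707), Psmc2 at 0.81 ± 0.15 (adjusted p = 0.000618), Psmc4 at 0.95 ± 0.24 (adjusted p = 0.00453), Psmc5 at 0.48 ± 0.19 (adjusted p = 0.0478) and Psmc6 at 0.75 ± 0.18 (adjusted p = 0.00297), and Psmc3 did not pass, at 0.34 ± 0.17 (adjusted p = 0.11). Among the scaffold and lid genes the calls were Psmd1 at 1.07 ± 0.21 (adjusted p = 0.000805), Psmd12 at 0.70 ± 0.18 (adjusted p = 0.00551), Psmd3 at 1.02 ± 0.17 (adjusted p = 0.000254), Psmd4 at 0.69 ± 0.17 (adjusted p = 0.00417), Psmd6 at 0.95 ± 0.19 (adjusted p = 0.000917), Psmd7 at 0.94 ± 0.16 (adjusted p = 0.000251) and Psmd8 at 0.81 ± 0.15 (adjusted p = 0.000642). Psmd2, the chaperone genes Psmd5 and Psmd9 and the lid genes Psmd13 and Psmd14 did not pass, at 0.49 ± 0.21 (adjusted p = 0.0621), 0.022 ± 0.23 (adjusted p = 0.943), -0.13 ± 0.22 (adjusted p = 0.633), 0.076 ± 0.19 (adjusted p = 0.737) and 0.31 ± 0.15 (adjusted p = 0.0939). Of the core chaperones, Psmg1 at 0.89 ± 0.21 (adjusted p = 0.00248) and Psmg2 at 0.59 ± 0.14 (adjusted p = 0.00304) were called. Psmg3 and the activator and regulator genes Psme3 and Psmf1 did not pass, at -0.03 ± 0.23 (adjusted p = 0.986), 0.13 ± 0.25 (adjusted p = 0.664) and -0.23 ± 0.20 (adjusted p = 0.322).

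The 4 members that were lower in Type IIb-like nuclei were Psmb10, Psme1, Psme2 and Psmg4. Psmb10 stood at 2.11, 0.826, 1.4 and 0.334 in Type IIb-like against 8.21, 11.2, 8.09 and 3.51 in fibro-adipogenic progenitor-like nuclei of the 10x libraries, a log2 fold change of -2.11 ± 0.43 (SE, adjusted p = 0.000991). Psme1 stood at 3.74, 5.04, 3.3 and 1.5 against 11, 12.7, 9.78 and 5.26, a change of -1.11 ± 0.26 (SE, adjusted p = 0.0028), and Psme2 at 2.84, 1.69, 2.33 and 1.83 against 10.5, 12.4, 8.26 and 4.39, a change of -1.46 ± 0.27 (SE, adjusted p = 0.000524). Psmg4 stood at 3.26, 1.61, 1.9 and 3.5 against 7.24, 8.07, 8.6 and 7.9, a change of -1.2 ± 0.28 (SE, adjusted p = 0.0024). In each of these genes, which were picked by their calls, the 10x values of the classes did not overlap. The share of all genes without overlap was not counted. Type IIb-like and fibro-adipogenic progenitor-like sums of the Sedentary 10x library were small. They held 2 and 4 UMIs of Psmb10, 9 and 6 of Psme1, 11 and 5 of Psme2, and 21 and 9 of Psmg4. Over the 7 libraries of the fit Psmb10 and Psmg4 were higher in Type IIb-like nuclei in 2, and Psme1 and Psme2 in 1, all of the second set, where the fibro-adipogenic progenitor-like nuclei of a library held 0 to 4 UMIs of each gene. Psmb8 and Psmb9, which did not pass the filter on low counts here, stood at 0.334 to 0.966 against 0.877 to 8.43 and at 0.207 to 0.55 against 3.51 to 8.09. Psmb10, Psme1 and Psme2 are genes that interferon induces.

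**Figure D3:**
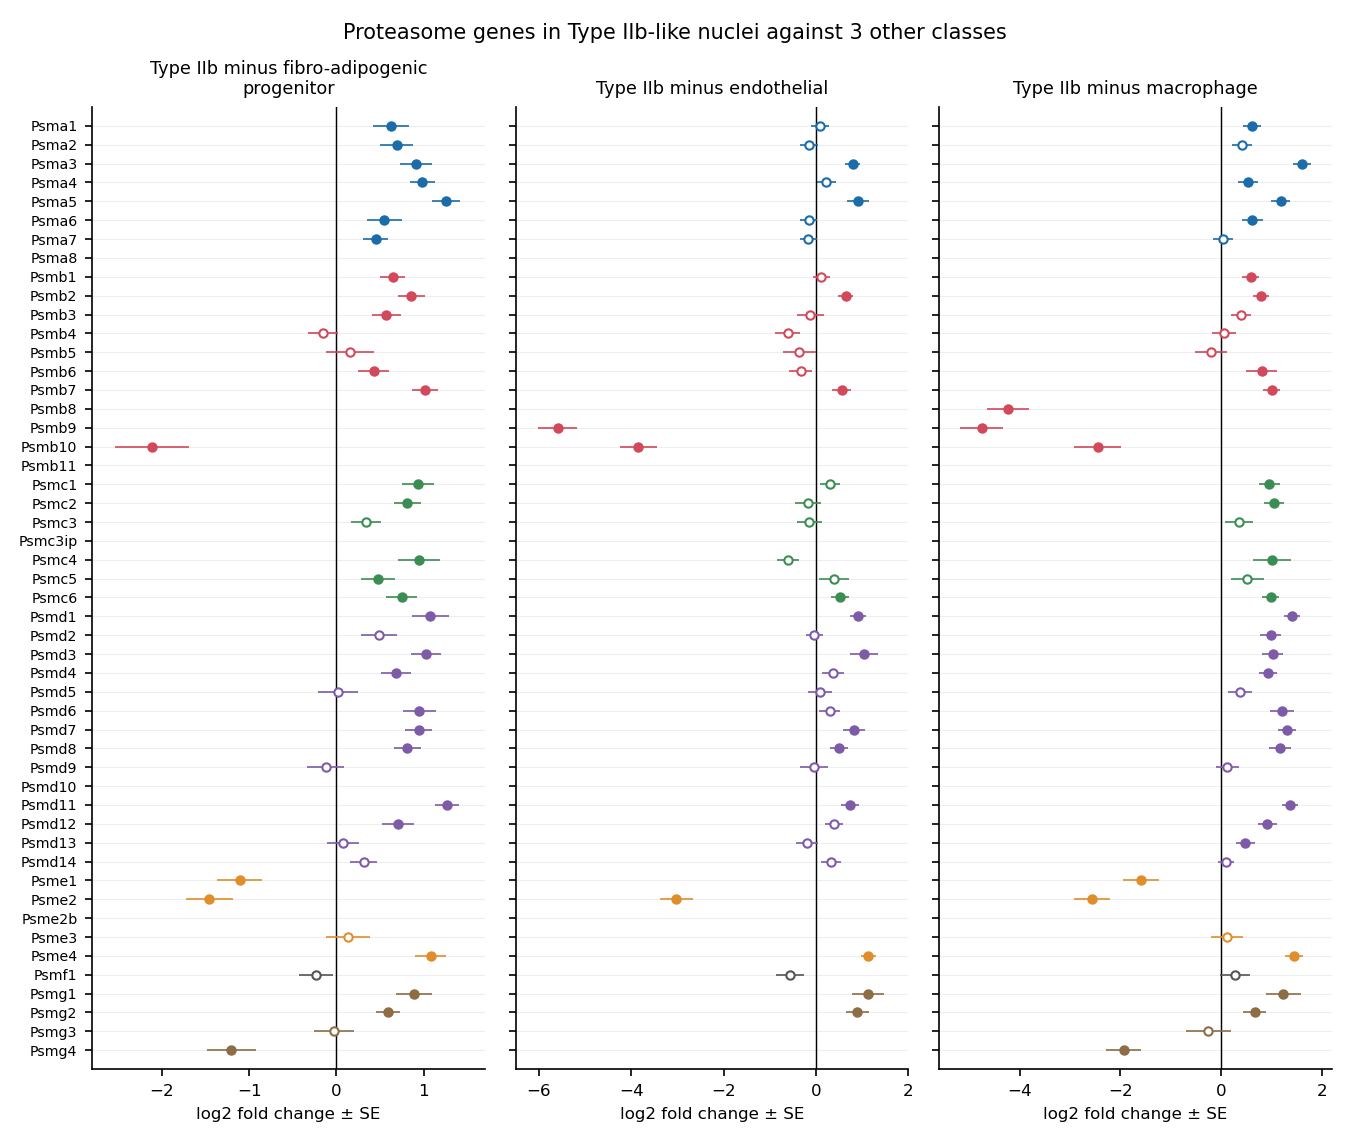
Log2 fold change (horizontal axis, ± SE) of each tested proteasome gene in Type IIb-like nuclei against fibro-adipogenic progenitor-like, endothelial-like and macrophage-like nuclei, coloured by sub-complex; filled points have an adjusted p below 0.05, and values above 0 are higher in Type IIb-like nuclei. Psme2b, at 0 in Type IIb-like nuclei, is left out of the right panel. Core and 19S genes that passed the test lie to the right apart from Psmb8, Psmb9 and Psmb10, and Psmb8 to Psmb10, Psme1, Psme2 and Psmg4 lie to the left where they were tested.

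Against endothelial-like nuclei, again without Old replicate 2, 40 members were tested in 7 libraries. Type IIb-like nuclei were higher for 13 and lower for 3, where 24.6% of 8176 genes were called higher and 25% lower. The median was 0.17 over the members and 0.04 over all genes. The outer-ring genes Psma3 and Psma5 were higher by 0.79 ± 0.16 (adjusted p = 0.000731) and 0.91 ± 0.23 (adjusted p = 0.00416) on the log2 scale, Psmb2 and Psmb7 by 0.64 ± 0.17 (adjusted p = 0.00466) and 0.56 ± 0.20 (adjusted p = 0.032), and Psmc6 by 0.52 ± 0.19 (adjusted p = 0.0353). Psmd1, Psmd3, Psmd7, Psmd8 and Psmd11 were higher by 0.91 ± 0.17 (adjusted p = 0.000411), 1.03 ± 0.30 (adjusted p = 0.00967), 0.82 ± 0.24 (adjusted p = 0.0116), 0.50 ± 0.19 (adjusted p = 0.0426) and 0.73 ± 0.19 (adjusted p = 0.00537). Psme4, at 369, 414, 382 and 452 in endothelial-like nuclei, was higher in Type IIb-like nuclei by 1.13 ± 0.16 (adjusted p = 2.85e-05), and the chaperones Psmg1 and Psmg2 by 1.13 ± 0.35 (adjusted p = 0.0151) and 0.89 ± 0.25 (adjusted p = 0.00807). The 3 members lower in Type IIb-like nuclei were Psmb9 at 19.6, 40.8, 34 and 11.7 in endothelial-like against 0.423, 0.207, 0.55 and 0.334 in Type IIb-like nuclei, Psmb10 at 21.5, 42.6, 21 and 11.7 against 2.11, 0.826, 1.4 and 0.334, and Psme2 at 15.7, 32, 19.4 and 14.1 against 2.84, 1.69, 2.33 and 1.83. Their log2 fold changes were -5.59 ± 0.43 (SE, adjusted p = 7.97e-08), -3.85 ± 0.40 (SE, adjusted p = 1.65e-06) and -3.03 ± 0.36 (SE, adjusted p = 5.52e-06), lower in 7 of 7 libraries for each. No Type IIb-like sum of these 3 genes reached the 10.7 CPM that the filter asked for, whereas 7 of 7 endothelial-like sums did, so that the filter fixed their direction and their values are a description. Of the 16 calls, 11 were kept in every alternative run that tested the gene, and those of Psmb7, Psmc6, Psmd7, Psmd8 and Psmg1 were lost in at least 1. A call whose gene did not pass the filter of a run was not counted as lost there. With relative log expression scaling in place of the main one, the median of all genes moved from 0.16 to 0.002 against fibro-adipogenic progenitor-like nuclei and from 0.04 to 0.14 against endothelial-like nuclei, and that of the members from 0.63 to 0.47 and from 0.17 to 0.27. Without Old replicate 1 the count against endothelial-like nuclei was 10 in place of 16. A clustering resolution of 0.5 in place of 1 gave 25, with 4 libraries in place of 7 and 46 members tested in place of 40. In that run the resolution and the loss of libraries cannot be told apart.

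Macrophage-like nuclei were found in the 10x set only, and were compared with Type IIb-like nuclei in its 4 libraries, with 46 members tested. Here 7 members were higher in macrophage-like nuclei and 26 lower, where 30.7% of 12936 genes were called higher and 34% lower. The median was −0.60 over the members and −0.15 over all genes. Of the 7, Psmb8, Psmb9, Psmb10 and Psme2b reached the 2.62 CPM that the filter asked for in 0 of 4 Type IIb-like sums and in 4 of 4 macrophage-like sums, so that the filter fixed their direction and their values are a description. Psme1, Psme2 and Psmg4 reached it in 3, 1 and 2 of the 4 Type IIb-like sums. Of the 3 immunoproteasome genes, Psmb8 stood at 15.9, 22.4, 12.1 and 8.95 against 0.966, 0.454, 0.381 and 0.334, Psmb9 at 18.3, 13.7, 18.9 and 4.48 against 0.423, 0.207, 0.55 and 0.334 and Psmb10 at 11.6, 14.9, 5.39 and 8.95 against 2.11, 0.826, 1.4 and 0.334. Their log2 fold changes were 4.23 ± 0.42 (SE, adjusted p = 6e-07), 4.75 ± 0.43 (SE, adjusted p = 2.12e-07) and 2.45 ± 0.47 (SE, adjusted p = 0.00036), in the same direction in 4 of 4 libraries. Psme1 and Psme2 were higher by 1.58 ± 0.36 (adjusted p = 0.00133) and 2.57 ± 0.36 (adjusted p = 2.05e-05); Psme1 had 0 UMIs in the macrophage-like nuclei of the Sedentary library and was higher in the other 3. Psmg4 stood at 12.8, 12.4, 13.5 and 17.9 against 3.26, 1.61, 1.9 and 3.5, a change of 1.94 ± 0.35 (SE, adjusted p = 0.000251). Psme2b had 29 UMIs in macrophage-like nuclei and 0 of 70408753 in Type IIb-like nuclei, which is at least 199.6-fold higher if 3 counts are taken over the set as the floor, and it lies within other annotated genes of its strand.

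The members that were lower in macrophage-like nuclei were mostly core and 19S genes. Psma3 stood at 133, 111, 137 and 58.2 against 248, 275, 225 and 162, a log2 fold change of -1.6 ± 0.18 (SE, adjusted p = 2.36e-06), and Psme4 at 412, 363, 396 and 484 against 717, 790.0, 813 and 736, a change of -1.45 ± 0.18 (SE, adjusted p = 5.02e-06). Psmd1 stood at 120.2, 137, 104 and 134 against 231, 234, 213 and 195, a change of -1.4 ± 0.16 (SE, adjusted p = 2.33e-06). The values of these genes, which were picked by their calls, did not overlap between the classes, and the share of all genes was not counted. In the core the other calls were Psma1 at -0.61 ± 0.18 (adjusted p = 0.00736), Psma4 at -0.53 ± 0.20 (adjusted p = 0.0317), Psma5 at -1.18 ± 0.19 (adjusted p = 9.75e-05), Psma6 at -0.62 ± 0.20 (adjusted p = 0.0151), Psmb1 at -0.59 ± 0.17 (adjusted p = 0.00827), Psmb2 at -0.79 ± 0.17 (adjusted p = 0.000804), Psmb6 at -0.80 ± 0.30 (adjusted p = 0.0306) and Psmb7 at -1.0 ± 0.17 (adjusted p = 0.000137). In the 19S regulator they were Psmc1 at -0.96 ± 0.21 (adjusted p = 0.00118), Psmc2 at -1.04 ± 0.20 (adjusted p = 0.00037), Psmc4 at -1.01 ± 0.38 (adjusted p = 0.0306), Psmc6 at -0.99 ± 0.17 (adjusted p = 0.000153), Psmd11 at -1.37 ± 0.16 (adjusted p = 2.81e-06), Psmd12 at -0.91 ± 0.19 (adjusted p = 0.000608), Psmd13 at -0.48 ± 0.19 (adjusted p = 0.0391), Psmd2 at -0.98 ± 0.21 (adjusted p = 0.000838), Psmd3 at -1.02 ± 0.20 (adjusted p = 0.000521), Psmd4 at -0.93 ± 0.17 (adjusted p = 0.000315), Psmd6 at -1.21 ± 0.24 (adjusted p = 0.000472), Psmd7 at -1.31 ± 0.18 (adjusted p = 1.97e-05) and Psmd8 at -1.16 ± 0.22 (adjusted p = 0.000365). Psmg1 and Psmg2 were lower by the same test, at -1.24 ± 0.35 (adjusted p = 0.00674) and -0.66 ± 0.24 (adjusted p = 0.0233). Of all 33 calls, 26 were kept in every alternative run that tested the gene, and those of Psma1, Psma4, Psma6, Psmb6, Psmc4, Psmd13 and Psmg2 were lost in at least 1. A call whose gene did not pass the filter of a run was not counted as lost there. Psmb4, Psmb5, Psmd9 and Psmd14 did not pass, with log2 fold changes of -0.052, 0.21, -0.12 and -0.089. The 3 comparisons share the Type IIb-like nuclei of the 10x libraries and are not independent of each other.

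Promoters were read for 42 of 50 members from RefSeq (GRCm38.p6, the assembly of mm10), as 250 bases before to 50 after the start site. No entry was matched for Psma8, Psmb1, Psmb2, Psmb7, Psmc3, Psmd3, Psmd7 and Psmg2. The core of the interferon-stimulated response element, GAAA followed by any 2 bases and GAAA again, on either strand, was present in 5 of 42 members (11.9%), Psmb3, Psmd4, Psmd9, Psme1 and Psmg4, and in 3.44% of all 32851 promoters. The core of the antioxidant response element, TGACNNNGC on either strand, through which Nfe2l1 and Nfe2l2 raise proteasome genes, was present in 6 of 42 (14.3%), Psmb5, Psmb6, Psmc6, Psmd12, Psmd9 and Psme4, and in 12.4% of all promoters. The sequences of Psme1 and Psmg4, which were lower in Type IIb-like nuclei, and of Psme4, which was higher, are shown 5′ to 3′ on the strand of the gene with the motif in capitals. The Psme1 promoter lies at chr14:55578244-55578543 (plus strand), that of Psmg4 at chr13:34162714-34163013 (plus strand) and that of Psme4 at chr11:30771525-30771824 (plus strand). The motif begins 10 bases after the start site in Psme1, 16 after it in Psmg4 and 7 before it in Psme4. Motif and direction did not go together throughout. Of the members with the interferon motif, Psmb3 and Psmd4 were called higher in Type IIb-like than in fibro-adipogenic progenitor-like nuclei, and Psmd9 was not called. Psmb10 and Psme2, which were called lower there, had no match to it. Of those with the antioxidant motif, Psmb6, Psmc6 and Psmd12 were also called higher, and Psmb5 and Psmd9 were not called. A match is a description of these letters and was not tested for binding.
Psme1: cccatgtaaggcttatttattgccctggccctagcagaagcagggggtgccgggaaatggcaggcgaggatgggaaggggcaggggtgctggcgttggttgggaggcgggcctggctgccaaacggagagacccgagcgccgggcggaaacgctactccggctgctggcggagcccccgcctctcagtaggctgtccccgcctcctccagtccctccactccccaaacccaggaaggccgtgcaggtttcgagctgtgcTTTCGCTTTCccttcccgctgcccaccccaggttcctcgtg
Psmg4: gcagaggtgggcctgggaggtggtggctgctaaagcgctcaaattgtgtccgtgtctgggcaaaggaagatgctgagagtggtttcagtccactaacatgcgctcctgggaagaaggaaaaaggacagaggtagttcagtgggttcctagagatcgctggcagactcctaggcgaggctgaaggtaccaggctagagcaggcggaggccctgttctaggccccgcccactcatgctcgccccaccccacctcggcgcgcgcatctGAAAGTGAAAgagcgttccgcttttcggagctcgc
Psme4: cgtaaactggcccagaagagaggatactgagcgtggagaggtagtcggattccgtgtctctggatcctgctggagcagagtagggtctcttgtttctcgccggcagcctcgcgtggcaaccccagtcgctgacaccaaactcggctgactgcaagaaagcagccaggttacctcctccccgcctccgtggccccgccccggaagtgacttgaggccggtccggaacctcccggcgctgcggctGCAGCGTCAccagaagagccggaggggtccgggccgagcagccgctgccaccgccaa

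Other genes of the pathway were read from lists. Of all genes tested, 27.2% were called lower in Type IIb-like than in fibro-adipogenic progenitor-like nuclei and 25% lower than in endothelial-like nuclei. In macrophage-like nuclei 30.7% were called higher than in Type IIb-like nuclei. Of genes for antigen processing and interferon response, 7 of 9 tested were lower in Type IIb-like than in fibro-adipogenic progenitor-like nuclei, 8 of 9 were lower than in endothelial-like nuclei, and 9 of 10 were higher in macrophage-like than in Type IIb-like nuclei, with none called the other way. The filter fixed the direction of Nlrc5 and Irf1 against endothelial-like nuclei and of Tap1 and Nlrc5 in macrophage-like nuclei, where no Type IIb-like sum reached its level. Against fibro-adipogenic progenitor-like nuclei, Nlrc5, the transactivator of class I genes, had a log2 fold change of -2.34 ± 0.25 (adjusted p = 9.37e-06), Irf1 one of -3.16 ± 0.35 (adjusted p = 1.34e-05), the peptide transporter gene Tap2 one of -2.12 ± 0.21 (adjusted p = 5.68e-06) and Tapbp one of -1.73 ± 0.18 (adjusted p = 6.44e-06). The class I genes B2m, H2-K1 and H2-D1 stood at -1.64 ± 0.27 (adjusted p = 0.00021), -1.16 ± 0.21 (adjusted p = 0.000403) and -2.28 ± 0.19 (adjusted p = 1.38e-06). Against endothelial-like nuclei Nlrc5 stood at -5.0 ± 0.40 (adjusted p = 1.39e-07) and B2m at -3.87 ± 0.32 (adjusted p = 1.49e-07), and in macrophage-like against Type IIb-like nuclei they stood at 5.57 ± 0.30 (adjusted p = 1.06e-09) and 3.48 ± 0.27 (adjusted p = 4.94e-08).

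Muscle ubiquitin ligases attach ubiquitin to the proteins of the fibre. The counts of calls in this paragraph stand beside the shares of all genes called. These were 35.7% higher in Type IIb-like than in fibro-adipogenic progenitor-like nuclei, 24.6% higher than in endothelial-like nuclei, and 34% lower in macrophage-like nuclei. In Type IIb-like against fibro-adipogenic progenitor-like nuclei 6 of 10 were called higher and 1 lower, against endothelial-like nuclei 6 of 9 and 1, and in macrophage-like against Type IIb-like nuclei 1 of 10 was higher and 5 were lower. Trim63, the MuRF1 ligase of myofibrillar proteins, was higher in Type IIb-like nuclei by 2.18 ± 0.32 (adjusted p = 0.000109) against fibro-adipogenic progenitor-like and 1.98 ± 0.19 (adjusted p = 6.72e-07) against endothelial-like nuclei, and lower in macrophage-like nuclei at -3.11 ± 0.23 (adjusted p = 2.73e-08). Fbxo32, the atrogin-1 ligase, gave 2.42 ± 0.29 (adjusted p = 2.09e-05), 1.92 ± 0.31 (adjusted p = 0.000139) and -3.02 ± 0.22 (adjusted p = 2.08e-08) in the same order. Fbxo40, Nedd4 and Stub1 were called on the same side in all 3 comparisons, Wwp1 was higher in Type IIb-like nuclei than in the first 2 classes but higher in macrophage-like nuclei by 1.12 ± 0.18 (adjusted p = 8.11e-05), and Fbxo21 was lower in Type IIb-like nuclei, at -1.52 ± 0.26 (adjusted p = 0.000326) and -1.49 ± 0.34 (adjusted p = 0.00218). The shuttle receptors and p97 genes, which bring ubiquitylated proteins to the proteasome, were called higher in Type IIb-like nuclei for 6 of 8 and 6 of 7 and lower in macrophage-like nuclei for 6 of 8. Vcp, which encodes p97, gave 0.93 ± 0.17 (adjusted p = 0.000543), 0.71 ± 0.18 (adjusted p = 0.00491) and -1.49 ± 0.16 (adjusted p = 1.08e-06). Ubqln2 was the exception, lower in Type IIb-like than in fibro-adipogenic progenitor-like nuclei at -0.84 ± 0.27 (adjusted p = 0.0183).

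Of all genes tested, 35.7% and 24.6% were called higher in Type IIb-like nuclei in the first 2 comparisons, and 34% lower in macrophage-like nuclei. Proteins bound to the proteasome outside the rule were called higher in Type IIb-like nuclei for 5 of 8 against fibro-adipogenic progenitor-like and 3 of 8 against endothelial-like nuclei, where 1 was lower, and in macrophage-like nuclei 1 of 8 was higher and 4 were lower. The exception in both was Sem1, a small subunit of the 19S regulator, at -0.76 ± 0.17 (adjusted p = 0.002) and 0.98 ± 0.17 (adjusted p = 0.000175). Ecpas, a proteasome adaptor, gave 1.16 ± 0.17 (adjusted p = 8.59e-05), 1.11 ± 0.17 (adjusted p = 7.42e-05) and, in macrophage-like nuclei, -1.69 ± 0.17 (adjusted p = 7.88e-07). Adrm1, a ubiquitin receptor, gave 0.86 ± 0.26 (adjusted p = 0.0128), 0.54 ± 0.35 (adjusted p = 0.222) and -1.52 ± 0.36 (adjusted p = 0.00198), and Usp14, a deubiquitinase, did not pass in any, at 0.39 ± 0.20 (adjusted p = 0.113), 0.26 ± 0.17 (adjusted p = 0.244) and -0.37 ± 0.19 (adjusted p = 0.0916). Nfe2l1, the transcription factor that raises proteasome genes when the proteasome is inhibited, was higher in Type IIb-like nuclei than in fibro-adipogenic progenitor-like nuclei by 0.77 ± 0.19 (adjusted p = 0.00335), did not pass against endothelial-like nuclei at 0.14 ± 0.21 (adjusted p = 0.617), and was lower in macrophage-like nuclei at -1.47 ± 0.22 (adjusted p = 4.29e-05). Its protease Ddi2 was called in all 3, at 1.69 ± 0.16 (adjusted p = 3.85e-06), 1.22 ± 0.21 (adjusted p = 0.000189) and -1.42 ± 0.16 (adjusted p = 2.47e-06), whereas Nfe2l2 was called in none, at 0.13 ± 0.15 (adjusted p = 0.471), 0.00014 ± 0.17 (adjusted p = 1) and -0.33 ± 0.16 (adjusted p = 0.0927). The ubiquitin gene Ubb gave 0.20 ± 0.13 (adjusted p = 0.214), -0.94 ± 0.19 (adjusted p = 0.000694) and -0.17 ± 0.20 (adjusted p = 0.47). Downstream peptidases had 1 call in each comparison, with Blmh lower in Type IIb-like nuclei at -0.70 ± 0.18 (adjusted p = 0.0046) and -1.18 ± 0.20 (adjusted p = 0.000193) and Npepps lower in macrophage-like nuclei at -0.64 ± 0.15 (adjusted p = 0.00199).

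The share of Psmb8, Psmb9 and Psmb10 among the UMIs of the 6 catalytic genes was used to set the immunoproteasome against the constitutive core within a library. Over all nuclei it was 13.1% (12.1% to 14.1%) in Old, 9.03% (8.24% to 9.86%) in Young, 9.26% (8.39% to 10.2%) in Running and 4.36% (3.56% to 5.29%) in Sedentary of the 10x set, with exact 95% binomial intervals that cover counting error only. In the second set it was 14% (11.2% to 17.1%), 7.38% (6.11% to 8.83%), 6.43% (4.95% to 8.18%) and 5.18% (3.47% to 7.41%), from 540 to 1503 UMIs. Old was highest and Sedentary lowest in each set. The Old libraries exceeded the Young ones by 5.31 percentage points on average (4.06 and 6.57 in the sets, SD 1.78, n = 2), and Running exceeded Sedentary by 3.07 (4.90 and 1.24, SD 2.58, n = 2). Both parts of the ratio enter these differences. In the 10x libraries Psmb7 held 2841, 3636, 2865 and 1911 of the 3728, 4496, 3773 and 2148 UMIs of Psmb5, Psmb6 and Psmb7. In the second set it held 284, 664, 371 and 244 of 487, 1392, 888 and 512. Counts were not corrected for the span of a gene, and Psmb7 weighed more in the share of the 10x set. The log2 ratio of Old to Young in the 10x and second sets was 0.36 and 0.35 for the summed CPM of Psmb8, Psmb9 and Psmb10. For Psmb5, Psmb6 and Psmb7 it was -0.25 and -0.67. The ratios of Running to Sedentary were 1.05 and 0.51, and -0.12 and 0.18. An exact two-sided permutation test gave p = 0.33 for each, the smallest p that 2 against 2 libraries allow. Taken over all Psmb UMIs the difference of Old and Young was 1.71 points, and with every nucleus thinned to 500 UMIs that of Running and Sedentary was 5.67.

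The share depended on the kind of nucleus. In the 10x set it was 3.23%, 1.16%, 2.52% and 0.951% in Type IIb-like nuclei of Old, Young, Running and Sedentary, from 631 to 3099 catalytic UMIs per library. It was 20.1%, 22.9%, 23.7% and 9.68% in fibro-adipogenic progenitor-like nuclei. Endothelial-like nuclei had 37.6%, 55.6%, 47.6% and 24.4%. Macrophage-like nuclei had 36.2%, 35%, 33.3% and 16.7%. Myotendinous junction-like nuclei had 2 such UMIs of 346 catalytic UMIs over the set. In the second set the share of Type IIb-like nuclei was higher, 4.10% to 10% per library (57 of 1038 catalytic UMIs), that of Type IIa/IIx-like nuclei 4.35% to 7.19% (38 of 652), and myotendinous junction-like nuclei had 5 of 103. Over 7 libraries the endothelial-like share exceeded that of Type IIb-like nuclei by 36.0 percentage points (SD 13.3), higher in 7 of 7. An exact two-sided permutation test within libraries gave p = 0.0156, the smallest that 7 libraries allow (0.0469 adjusted over 3 classes). Endothelial-like nuclei held only 8 to 23 catalytic UMIs per second-set library. The fibro-adipogenic progenitor-like share exceeded that of Type IIb-like nuclei by 12.1 points (SD 14.2) in 5 of 7 libraries, exact p = 0.0781 (adjusted 0.117), with only 6 to 13 catalytic UMIs per second-set library. The macrophage-like share exceeded it by 28.4 points (SD 8.52) in 4 of 4 libraries, exact p = 0.125, the smallest that 4 libraries allow. Within the 10x set the Sedentary library was lowest in each of these classes (Type IIb-like, fibro-adipogenic progenitor-like, endothelial-like and macrophage-like). Old was highest in Type IIb-like and macrophage-like nuclei only. In that order of classes, the Sedentary values rested on 6 of 631, 9 of 93, 11 of 45 and 5 of 30 catalytic UMIs. The exact binomial interval of Sedentary overlapped those of Young and Running in Type IIb-like nuclei. It overlapped that of Old in fibro-adipogenic progenitor-like nuclei, and those of Old and Running in endothelial-like nuclei. In macrophage-like nuclei it overlapped those of all other groups.

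The 10 fibro-adipogenic progenitor markers summed to 6227, 3468, 2920.2 and 1182 CPM in the 10x libraries and 661, 439, 648 and 594 in those of the second set, the 8 macrophage markers to 844, 606, 493 and 366 and 462, 174, 146 and 128, and the 9 endothelial markers to 550.1, 319, 324 and 359 and 715, 398, 245 and 192, with no marker of these lists at 0 in any library. Old had the highest sum of each of these lists in each set, and the order of the other groups was not that of the share throughout: in the 10x set the endothelial sum of Sedentary lay above those of Young and Running, and in the second set the fibro-adipogenic progenitor sum was lowest in Young. Adipocyte, T cell and B cell markers also summed highest in Old in each set. Pericyte and smooth muscle markers summed to 415, 649, 487 and 435 CPM in the 10x libraries, with Old lowest. Lymphatic endothelial markers summed to 79.5, 139, 105 and 52.7 there, with Old below Young and Running. In the second set Old was highest in both. The part of these nuclei in the differences of the share between groups was not tested.

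**Figure D4:**
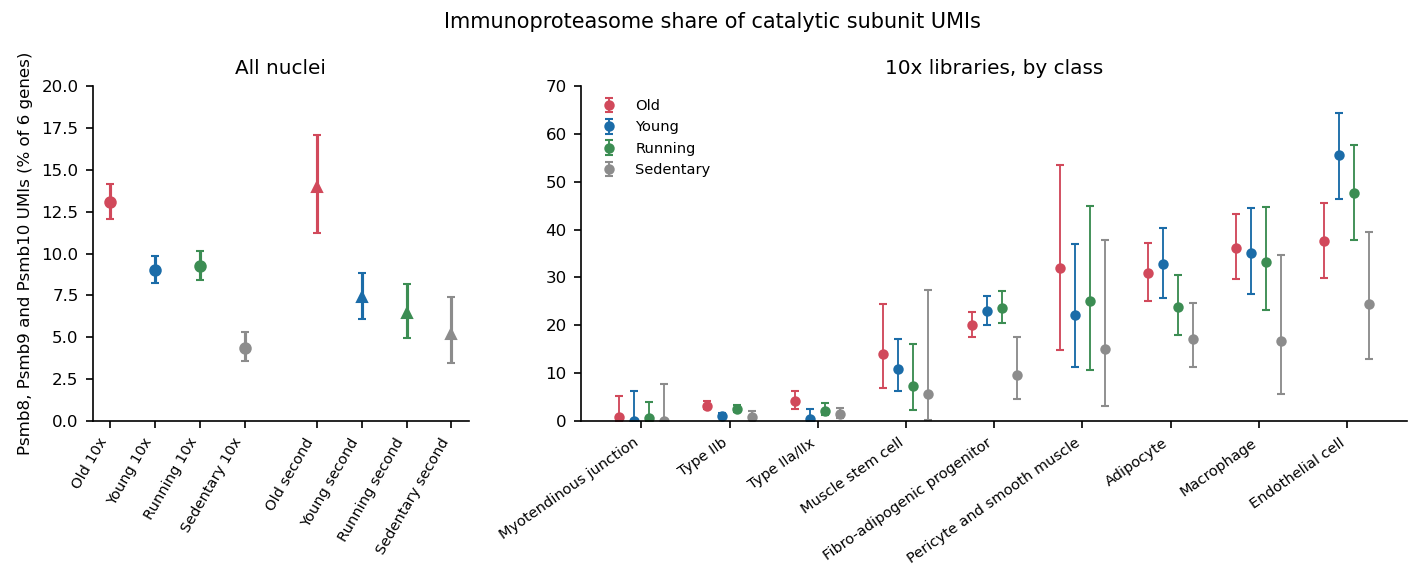
Share (%) of Psmb8, Psmb9 and Psmb10 among the UMIs of the 6 catalytic genes, over all nuclei of the 8 libraries (left; circles 10x, triangles second set) and by nuclear class in the 4 10x libraries (right), coloured by group; bars are exact 95% binomial intervals. In the 10x set the Type IIb-like and Type IIa/IIx-like nuclei lie at 4.10% or below, and endothelial-like nuclei reach 55.6%.

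Old and Young muscle were compared over all nuclei, since the study asks what ageing changes in this tissue. No member passed the test, and none of 20313 genes did (0% called by edgeR's quasi-likelihood test, adjusted p from 0.693 to 0.984 for the members). At an unadjusted p under 0.05 there were 0 members and 556 genes (2.74%), and DESeq2 also called 0. The fitted values were below 0 for 46 members and above 0 for 4, with a median log2 fold change of −0.46 against 0.19 over all genes. The median was −0.11 in the 10x libraries and −0.99 in the second set, and 32 members were lower in both. By sub-complex the medians were −0.53 for Psma, −0.60 for Psmb, −0.50 for Psmc, −0.45 for Psmd, −0.62 for Psme and −0.28 for Psmg. The lowest values were those of Psmd6 at -0.99 ± 0.53 (SE, adjusted p = 0.693), Psme4 at -0.81 ± 0.41 and Psmb6 at -0.80 ± 0.55. The highest were Psma8 at 1.85 ± 1.07, Psmb9 at 0.85 ± 0.79 and Psme2b at 0.83 ± 0.95. Without Old replicate 2 the median was 0.02, with 26 members above 0 and 24 below, without Old replicate 1 it was −1.12, and over nuclei of named clusters alone it was −0.23 with 37 below.

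Running and Sedentary muscle were compared to ask what exercise changes. No member and 0% of 20313 genes passed the test. At an unadjusted p under 0.05 there were 0 members and 98 genes (0.482%), and DESeq2 called 0. Fitted values were above 0 for 34 members and below 0 for 16, with a median of 0.15 against −0.04 over all genes, 0.29 over the 10x libraries and 0.01 over the others. All 7 Psmc genes were above 0, with a median of 0.38, where the Psma genes had 0.10, the Psmb genes 0.33, the Psmd genes 0.15, the Psme genes −0.08 and the Psmg genes 0.17. The highest values were Psmb10 at 0.996 ± 0.68 (SE), Psmc3ip at 0.79 ± 0.87 and Psmb6 at 0.74 ± 0.55. The lowest were Psmb11 at -1.43 ± 0.90, Psma8 at -1.29 ± 1.11 and Psmd14 at -0.45 ± 0.35. The median was −0.27 without Sedentary replicate 1, −0.09 without Running replicate 2 and 0.66 without Sedentary replicate 2. Members with a span under 5 kb had a median of 0.41 (all genes of that span 0.31) and those of 30 kb or more one of −0.06 (all genes −0.15). No gene of the pathway lists was called in either comparison.

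**Figure D5:**
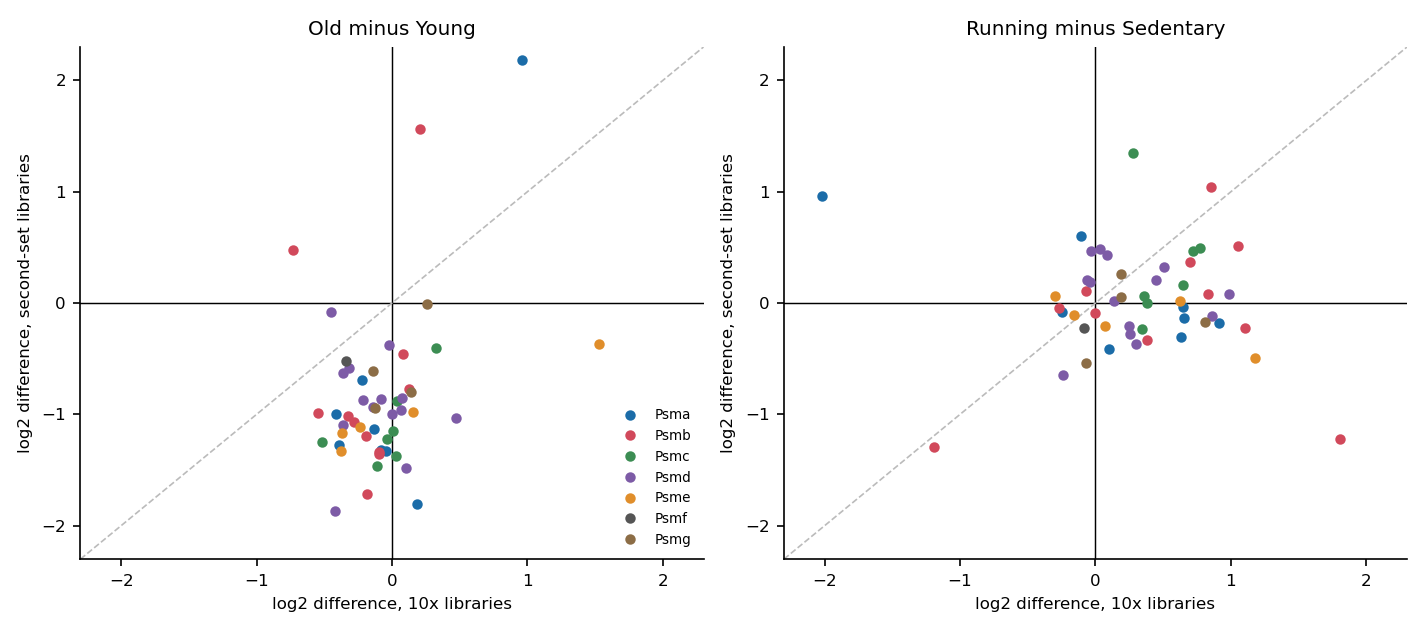
Log2 difference of each proteasome gene in the 10x libraries (horizontal axis) and in the second-set libraries (vertical axis), for Old minus Young (left) and Running minus Sedentary (right), coloured by sub-complex; the dashed line marks equal differences. For Old minus Young the members lie near a median of −0.11 on the horizontal and −0.99 on the vertical axis, and for Running minus Sedentary near 0.29 and 0.01.

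Within classes no member passed the test either. Old and Young were compared in 3 classes, where 0.143% of 34271 genes tested were called. The members' median was 0.059 in Type IIb-like nuclei (all genes -0.053; 26 of 47 above 0), -0.02 in Type IIa/IIx-like nuclei (all genes -0.0087; 19 of 43) and 0.031 in myotendinous junction-like nuclei (all genes -0.10; 19 of 34). Those were medians of fitted values. Taken per library set, the members' median in Type IIb-like nuclei lay below 0 each time. It was -0.078 over the 10x libraries (all genes 0.0087) and -0.67 over the others (all genes -2.57). For Type IIa/IIx-like nuclei it was -0.049 and -0.37 (all genes 0.026 and -0.20). For myotendinous junction-like nuclei it was 0.0019 and -0.23 (all genes 0.0045 and -0.69). The smallest adjusted p of a member was 0.982. Different clusters held most of a class in the groups: of the 10x Type IIb-like clusters, one led by Adamtsl1 held 189 nuclei of Old and 2578 of Young and one led by Ostn 2086 and 264, and a Type IIa/IIx-like cluster led by Myh2 held 777 and 75. The second-set value of Type IIb-like nuclei rests on 38 nuclei of Old replicate 2. Running and Sedentary were compared in 6 classes, where 0.0259% of 61877 genes tested were called. The members' medians ran from 0.059 in Type IIb-like nuclei to 0.25 in neuromuscular junction-like nuclei, beside 0.019 and 0.016 over all genes, with 25 of 44 members above 0 in fibro-adipogenic progenitor-like nuclei. The counts of members at an unadjusted p under 0.05 were 1 in Type IIa/IIx-like nuclei for each comparison and 0 in the other classes.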

How the data were processed

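Single-nucleus RNA sequencing of gastrocnemius muscle gave 8 libraries, 2 for each of the Old, Young, Running and Sedentary groups. The deposited files hold counts (UMIs per gene and nucleus, not normalized) that the authors made with Cell Ranger 6.1.2 and mm10 for the 10x set and, per the file headers, with PISA 0.12b for the second set. Nuclei with fewer than 200 or more than 6000 genes or over 6% mitochondrial UMIs were left out. Nuclei were clustered with scanpy 1.11.5 and leidenalg 0.10.2 at resolution 1 without the proteasome genes, and clusters were named from marker lists. The limits for naming (at least 3 markers detected) were chosen once the clusters were known. The doublet caller marked no nucleus in 5 libraries, so that no doublets were removed. An alternative left out the highest 6% of doublet scores in each library.

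UMIs were added up over the nuclei of each library, and over those of each class with at least 20 nuclei in a library. The sums were tested with edgeR 4.0.16 (quasi-likelihood F-test, TMM scaling, filterByExpr with a minimum count of 10) on group and library set, or on class with library as a block, with Benjamini-Hochberg adjustment over all genes tested and a threshold of 0.05. Genes of the mitochondrial genome and of ribosomal proteins entered neither the fits nor the CPM totals. The SE of a fitted log2 fold change was its absolute value divided by the square root of the F statistic. It was derived from the test and does not match the p-value for every gene. Each fit was tested on simulated data. DESeq2 1.42.0, other scalings, filters, covariates and clusterings and the omission of each library were alternatives. Shares were compared by exact two-sided permutation tests, and binomial intervals cover counting error only. p-values measure the spread between libraries, which may be technical.

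The members and gene lists were chosen with earlier results of these data known. Genes named with values were the catalytic subunits, every member called in a fit, the members with most and fewest UMIs in each sub-complex, the 3 largest rises and falls in each comparison of all nuclei, and chosen pathway genes with every called one; the other members were added to describe the family in full. Annotated positions are of mm10. Values of some genes of the pathway lists are not reported here.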

Additional observations from a re-analysis of the deposited data

How the results depend on the processing

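No member was called between Old and Young or between Running and Sedentary muscle, over all nuclei or within classes, under any alternative run. The count of members called between Type IIb-like and endothelial-like nuclei was 16 in 7 libraries. At a clustering resolution of 0.5 it was 25, where only 4 libraries had enough nuclei of both classes. With each library left out in turn it was 10 to 20, with 10 without Old replicate 1. The difference of the immunoproteasome share between Old and Young was 1.71 percentage points over all Psmb UMIs, and 4.49 to 6.13 with each library left out. That between Running and Sedentary was 5.67 with nuclei thinned to 500 UMIs, and 1.65 to 4.49 with each library left out. The median log2 fold change of the members ran from −1.12 to 0.017 between Old and Young and from −0.27 to 0.66 between Running and Sedentary when each library was left out; the causes were not tested. Of all genes, 0 were called in either comparison of all nuclei; with the trend on gene length removed 3 and 8 were called, with only the 4 libraries of a comparison 4 and 81, and without Sedentary replicate 2 4 and 418, and without Sedentary replicate 1 8 and 0. Restricted to the 10x libraries, an alternative chosen after seeing the data, 29 members were called higher and 5 lower in Type IIb-like than in fibro-adipogenic progenitor-like nuclei, and 17 and 5 against endothelial-like nuclei. No paired analysis was possible because the replicate number marks the library set and not a shared animal, and the set was a term of the fit. Depth limits the second set, where fibro-adipogenic progenitor-like nuclei held 6 to 13 catalytic UMIs per library.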

Other observations

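The immunoproteasome share was also read in classes too small for a test. In the 10x set it was 40 of 90 catalytic UMIs in T cell-like nuclei, 21 of 50 in B cell-like nuclei and 32 of 305 in muscle stem cell-like nuclei, with 17.2% to 32.7% per library in adipocyte-like nuclei. Neuromuscular junction-like nuclei had 0 of 75, which allows a share of up to 4%, and Schwann cell-like nuclei 0 of 12, which allows up to 25%. Psma8, the testis counterpart of an outer-ring subunit, stood at 30.1 CPM in Old replicate 2 and at 4.27 or less in the other 7 libraries.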
